A study of Mus musculus with 6 samples.

Results

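The nuclear genes of respiratory complex III, complex IV and the ATP synthase were examined in CD11c+ cells sorted from mouse spleen, labelled as dendritic cells, which present antigen to T cells. The members are all genes whose symbol starts with Uqcr, with Cox followed by a digit, or with Atp5. This rule gave 51 of the 24346 genes in the tables, of which 8 belong to complex III, 26 to complex IV and 17 to the ATP synthase. A further symbol of the complex IV family is not analysed here. Sorted by textbook role, 33 members are subunits found in most tissues (8 of complex III, 10 of complex IV, 15 of the ATP synthase), 6 are tissue isoforms of complex IV, 10 are complex IV assembly genes including Cox7a2l, and 2 carry an Atp5 symbol but have another role.

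RNA from magnetically sorted cells was sequenced in 3 libraries of cells treated with IL-33, an alarmin cytokine of the IL-1 family, and in 3 libraries of cells treated with PBS, the vehicle. Strain, genotype, age, dose, duration and whether treatment took place in the animal or in culture are not stated in the labels. Whether libraries of a group stem from different mice or cultures is not stated either, so each p-value reflects only library-to-library spread, possibly technical. The series title names dendritic cells stimulated by IL-33, and the comparison asks what IL-33 changed in them.

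Complex III passes electrons from ubiquinol to cytochrome c, and complex IV passes them from cytochrome c to oxygen. Both pump protons across the inner mitochondrial membrane, and the ATP synthase uses the resulting gradient to make ATP in its F1 head, driven by rotation of its membrane-embedded Fo ring. Most subunits are encoded in the nucleus, and dendritic cells shift between respiration and glycolysis with their state of activation.

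Levels are given in FPKM, a fragment number divided by transcript length and by library size. A change is the mean log2(FPKM + 1) with IL-33 less that with PBS, given ± its standard error (SE). Summed FPKM was 841884, 778391 and 782587 in the IL-33 libraries, against 614522, 641412 and 640736 in the PBS libraries. Depth relative to PBS replicate 1, read from the steps between low values, lay between 0.945 and 1.22. Only 17.3% to 19.9% of the genes with low values lay within 2% of the ratio used, so these depths are rough estimates. All 13 dendritic cell markers passed the expression filter, of which 5 were higher and 6 lower with IL-33, and Itgax, which encodes CD11c, averaged 283 ± 15.1 FPKM in IL-33 libraries and 241 ± 11.8 FPKM in PBS libraries (SD, n = 3 each). Markers of other cells in the sort differed between the groups. The 8 eosinophil markers summed to 870 to 1238 FPKM in IL-33 libraries and 216 to 310 FPKM in PBS libraries. Of the 5 that passed the filter in PBS libraries alone 3 were higher; Epx, Ear1 and Ear6 passed only through the IL-33 libraries. Of the neutrophil markers 6 of 7 were higher (sums of 1216 to 2452 FPKM with IL-33, 479 to 790 FPKM with PBS). Plasma cell markers summed to 419 to 448 FPKM with IL-33 and 132 to 181 FPKM with PBS. Of the 5 that passed in PBS libraries alone 4 were higher; Sdc1, Tnfrsf17 and Fkbp11 passed only through the IL-33 libraries. All 10 T cell markers were lower (141 to 150 FPKM with IL-33, 298 to 525 FPKM with PBS), as were all 8 natural killer cell markers (223 to 347 FPKM with IL-33, 554 to 740 FPKM with PBS). Of the 8 B cell markers, 3 were lower (355 to 480 FPKM with IL-33, 321 to 779 FPKM with PBS). Macrophage markers summed to 3471 to 4697 FPKM with IL-33 and 2195 to 3793 FPKM with PBS, with 2 of 8 higher. All these are values as deposited, where 28.0% of all tested genes were called higher and 25.5% lower. With all libraries set to equal FPKM totals, 0 of 8 macrophage markers were higher. Dendritic cell markers were then 3 higher and 8 lower, with Itgax at -0.11, and neutrophil markers 6 higher and 1 lower. The counts for the other cell types stayed the same. None of the tested markers was at 0 in every library. The eosinophil peroxidase gene Epx and Ear1 were listed at 0 in PBS replicate 1, and Ear6 at 0 in PBS replicate 2. The part of these cells in the results below was not tested.

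All 33 subunits found in most tissues were higher in IL-33 libraries, and for each of them the lowest IL-33 library lay above the highest PBS library. Their changes ran from 0.40 for Uqcrb to 0.98 for Cox8a with a median of 0.69, and the highest adjusted p among them was 0.00416 (limma, Benjamini-Hochberg over all tested genes). Over all 11518 tested genes the median change was 0.01, with 28.0% called higher and 25.5% called lower, and IL-33 lay wholly above PBS for 32.7% and wholly below it for 30.9%. The summed level of the 33 subunits was 12727, 11872 and 10958 FPKM in IL-33 libraries, against 6860, 7150 and 7851 FPKM in PBS libraries. As a share of each library's FPKM total, which does not depend on the scaling between libraries, they made up 1.51%, 1.53% and 1.40% with IL-33, against 1.12%, 1.11% and 1.23% with PBS. In these bulk libraries, fewer cells of a type and less RNA per cell cannot be told apart.

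The size of the rise depended on how libraries were scaled. With all libraries set to equal FPKM totals, the median over all genes moved to -0.29, and 11.1% were called higher against 50.7% lower. All 33 subunits kept a positive change in that scaling with a median of 0.35, and 30 of 33 were called higher. Relative to the median gene, the subunits stood 0.68 higher as deposited, 0.64 with equal totals, 0.49 after a correction for transcript length and GC content, and 0.34 with quantile normalization. Quantile normalization, under which 22.1% of all genes were called higher and 25.0% lower, gave a subunit median of 0.32 and 25 of 33 called, with Uqcrb at 0.00.

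Of the 48 tested members, 39 were called higher and 1 lower, and 8 did not pass the threshold. All 8 lie outside the 33 subunits. Cox4i2, which is among the 39 called higher, and Cox7a1 reached the filter of 1 FPKM in at least 3 libraries only with the help of the IL-33 libraries. Their passing is therefore not independent of treatment. Cox7b2, Cox8b and Cox8c were listed at 0 in all 6 libraries and were not tested.

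**Figure D1:**
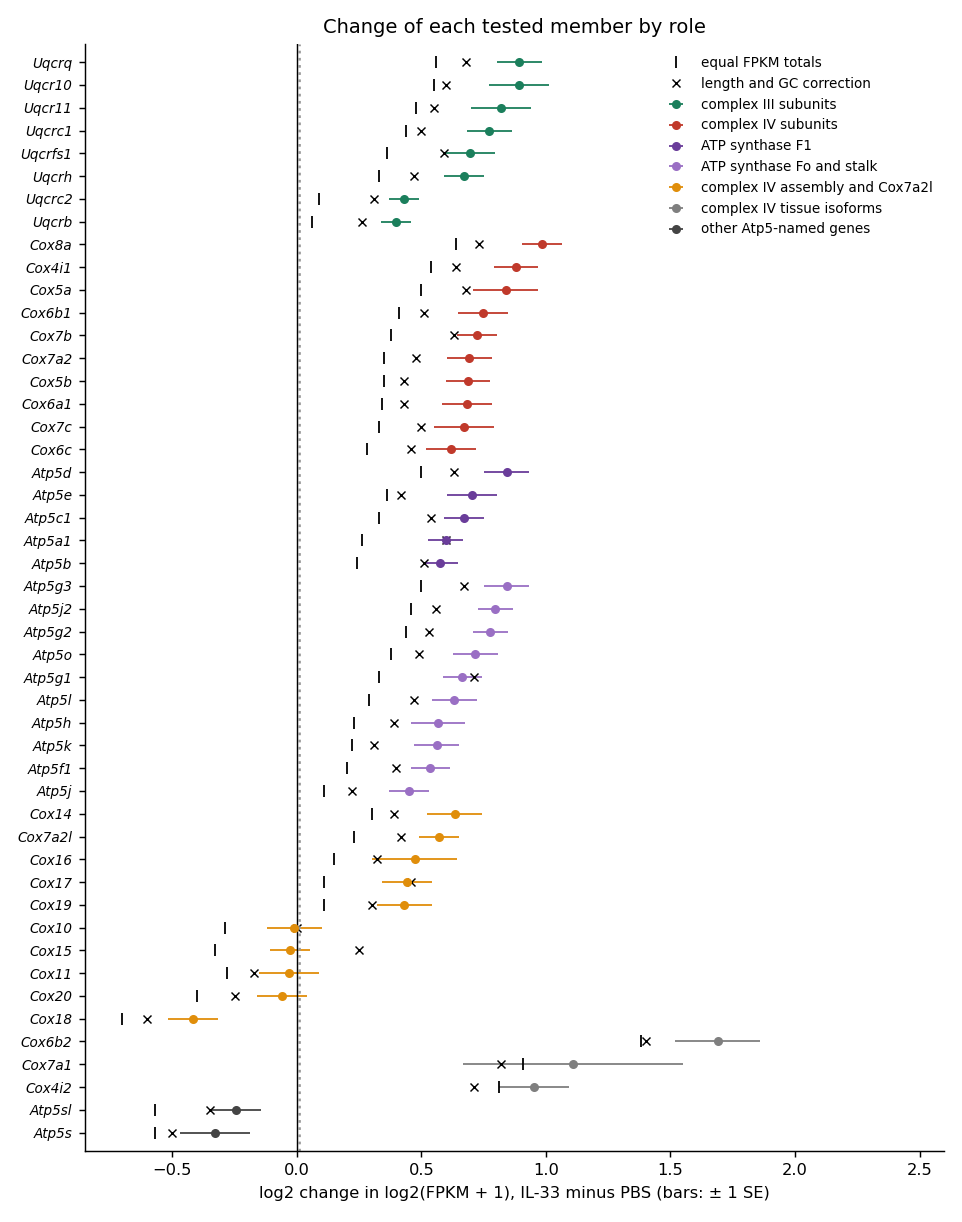
Change of each tested member on the log2(FPKM + 1) scale, IL-33 minus PBS, with bars of 1 SE and colours for the role. Black ticks show the change with equal FPKM totals, crosses the change after a correction for transcript length and GC content, and the dotted grey line the median of all tested genes; the 33 subunits sit between 0.40 and 0.98, and Cox18 falls below 0.

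Promoter windows are shown because these genes moved together. RefSeq windows on GRCm38.p6, running from 250 bases before to 50 bases after the start, were found for 41 of the 51 members. Motifs of factors known to act on respiratory genes were searched on both strands. They were the palindromic NRF1 motif, whose letters are the capitals in the Atp5g2 stretch, a looser NRF1 form with a central base free, CCGGAAG for ETS factors such as GABPA, AAGATGGC for YY1, and TCAAGGTCA for the estrogen-related receptors. The stretches below are written 5′ to 3′ on the gene's strand with matches in capitals, and a match on the opposite strand is therefore spelled as its reverse complement. Every match to the strict NRF1 form is also a match to the looser one. Each stretch comes from the first window of its gene that held a match.

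Cox8a was the subunit with the largest change, Uqcrh the complex III subunit of highest level, and both hold an ETS match close to the start (chr19:7217600-7217706 and chr4:116075059-116075160, both minus strand).
Cox8a: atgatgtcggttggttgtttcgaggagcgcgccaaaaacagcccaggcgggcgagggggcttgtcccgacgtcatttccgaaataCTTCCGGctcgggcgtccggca
Uqcrh: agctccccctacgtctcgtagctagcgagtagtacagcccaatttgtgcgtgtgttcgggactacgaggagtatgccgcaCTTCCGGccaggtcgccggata

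Cox6a1 (chr5:115348953-115349135, minus strand) and Atp5k (chr5:108434370-108434489, minus strand) hold both an NRF1 and an ETS match.
Cox6a1: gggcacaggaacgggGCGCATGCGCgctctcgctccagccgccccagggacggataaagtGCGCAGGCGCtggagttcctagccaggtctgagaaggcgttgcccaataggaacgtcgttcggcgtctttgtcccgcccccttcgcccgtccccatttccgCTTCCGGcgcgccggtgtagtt
Atp5k: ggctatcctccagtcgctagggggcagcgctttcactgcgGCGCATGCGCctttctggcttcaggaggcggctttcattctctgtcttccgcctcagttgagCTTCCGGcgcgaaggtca

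The c subunit genes Atp5g2 (chr15:102671048-102671137, minus strand) and Atp5g3 (chr2:73911297-73911416, minus strand) encode the same mature protein from different promoters. Atp5g2 holds the strict NRF1 form, and Atp5g3 holds the looser form and the single receptor match among the members.
Atp5g2: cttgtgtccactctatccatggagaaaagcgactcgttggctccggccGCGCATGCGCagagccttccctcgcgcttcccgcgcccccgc
Atp5g3: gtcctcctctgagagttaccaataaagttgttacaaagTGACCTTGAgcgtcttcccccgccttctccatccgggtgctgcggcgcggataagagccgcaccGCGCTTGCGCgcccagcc

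Cox15 (chr19:43752972-43753090, minus strand) and Cox20 (chr1:178319035-178319152, plus strand) are assembly genes that did not pass the threshold, and their windows hold an ETS match too.
Cox15: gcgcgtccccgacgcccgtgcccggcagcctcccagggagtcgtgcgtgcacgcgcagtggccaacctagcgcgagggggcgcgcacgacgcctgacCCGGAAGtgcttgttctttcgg
Cox20: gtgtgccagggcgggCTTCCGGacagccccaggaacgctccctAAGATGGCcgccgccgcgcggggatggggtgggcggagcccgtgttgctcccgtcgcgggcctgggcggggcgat

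Counts are of genes, and a gene counts if any of its windows matched. The strict NRF1 form was present in 4 of 41 members with a window (9.76%), against 2.47% of the 8813 tested genes with a window. The ETS motif was present in 15 (36.6%), against 21.2%, and the YY1 motif in 6 (14.6%), against 5.66%. At least 1 of the motifs occurred for 23 members (56.1%), against 34.1% of tested genes. Among genes with a window, the ETS motif occurred in 10 of 27 subunits (37.0%) and in 5 of 8 assembly genes (62.5%), so genes that were called and genes that were not both carried it. These matches are a description of the letters in these windows.

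All 8 complex III members were higher with IL-33, with a median change of 0.73. The core proteins Uqcrc1 and Uqcrc2 form the matrix side of the complex, Uqcrfs1 is the Rieske iron-sulfur protein that takes electrons from ubiquinol, Uqcrh is the hinge protein near cytochrome c1, and Uqcrb, Uqcrq, Uqcr10 and Uqcr11 are small supernumerary subunits. Uqcrq measured 247, 206.5 and 205 FPKM in IL-33 libraries, against 111, 121 and 119.8 FPKM in PBS libraries, a change of 0.89 ± 0.09 (SE; limma adjusted p = 0.000506). Uqcrh, the most abundant of the complex, measured 706, 647 and 654 FPKM with IL-33, against 409, 401 and 451 FPKM with PBS (change 0.67 ± 0.08, limma adjusted p = 0.000753). Uqcrc1 measured 129.5, 121 and 109 FPKM with IL-33, against 71.0, 63.3 and 74.9 FPKM with PBS (change 0.77 ± 0.09, limma adjusted p = 0.000852). The groups were separate for these 3 genes, and IL-33 replicate 1 was the highest library for each. Uqcr10 measured 356, 306 and 274 FPKM with IL-33, against 163, 152 and 188 FPKM with PBS (change 0.89 ± 0.12, limma adjusted p = 0.00122). It had the widest spread of the complex among IL-33 libraries, still clear of the PBS values.

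The smallest changes of the complex were in Uqcrb (0.40 ± 0.06) and Uqcrc2 (0.43 ± 0.06). Uqcrb measured 249.9, 259.7 and 249.7 FPKM with IL-33, against 183, 202 and 191 FPKM with PBS. With equal FPKM totals Uqcrb changed by 0.06 and Uqcrc2 by 0.09, and neither was called (limma adjusted p = 0.468 and 0.183), while the other 6 subunits of the complex were.

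All 10 complex IV subunits taken by the symbol rule were higher, with a median of 0.71. They ranged from 0.62 for Cox6c to 0.98 for Cox8a, and all 10 were also called with equal totals and with quantile normalization. Ndufa4, counted below with the further complex IV genes, changed by 0.39 (limma adjusted p = 0.00399). It was not called with equal totals or quantile normalization (0.05 and 0.01, limma adjusted p = 0.474 and 0.873). None of these nuclear subunits holds the haem and copper centres, which sit in mitochondrially encoded proteins; those transcripts are not analysed here. Cox8a, a small membrane subunit, measured 618, 564 and 526 FPKM in IL-33 libraries, against 285, 273.5 and 303 FPKM in PBS libraries. Every IL-33 library thus lay far above every PBS library, and the change of 0.98 ± 0.08 had the smallest adjusted p of all members (limma, 0.000283), at 1.98-fold. Cox4i1, the main form of the subunit that binds ATP and ADP as regulators, measured 841, 782 and 740.0 FPKM with IL-33, against 389, 422 and 474 FPKM with PBS (change 0.88 ± 0.09, limma adjusted p = 0.000602). It had the highest mean of the complex IV subunits. Cox7b, an X-linked accessory subunit, measured 178, 171 and 149 FPKM with IL-33, against 95.3, 101 and 104 FPKM with PBS (change 0.72 ± 0.08, limma adjusted p = 0.000771). Cox7a2 measured 179, 174 and 153.5 FPKM with IL-33, against 94.5, 105.5 and 113 FPKM with PBS (change 0.69 ± 0.09, limma adjusted p = 0.00122). The remaining subunits, Cox5a, Cox5b, Cox6a1, Cox6b1, Cox6c and Cox7c, changed by 0.62 to 0.84.

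**Figure D2:**
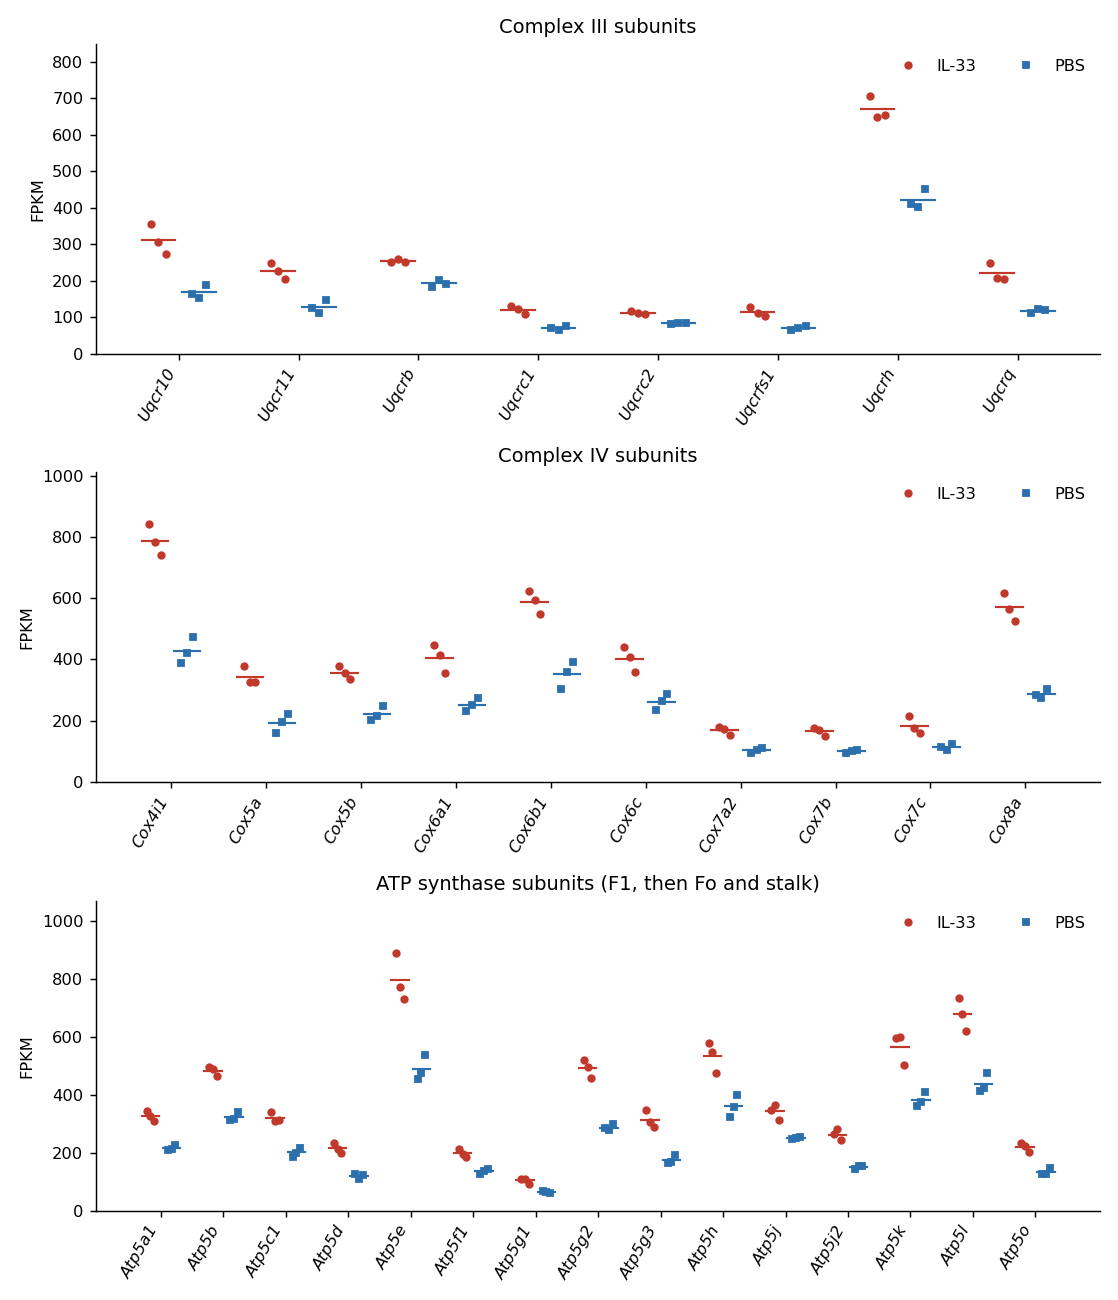
FPKM of the 33 subunits in each library, with IL-33 as red circles and PBS as blue squares, replicates 1 to 3 from left to right and a line at the group mean. For every subunit the 3 red points lie above the 3 blue ones; Cox8a shows 526 to 618 FPKM with IL-33 and 273.5 to 303 FPKM with PBS.

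All 5 genes of the F1 head, the catalytic part of the ATP synthase, were higher, with a median of 0.67. Atp5a1 and Atp5b encode the alpha and beta subunits that form the catalytic hexamer, and Atp5c1, Atp5d and Atp5e encode the central stalk that turns within it. Atp5b measured 497.5, 488 and 466 FPKM in IL-33 libraries, against 313.5, 317 and 342 FPKM in PBS libraries (change 0.58 ± 0.07, limma adjusted p = 0.000823). Atp5a1 measured 344, 326 and 311 FPKM with IL-33, against 208, 212 and 226 FPKM with PBS (change 0.60 ± 0.07, limma adjusted p = 0.00081). For both catalytic genes the lowest IL-33 library lay well above the highest PBS library. Atp5d had the largest change of the head at 0.84 ± 0.09 (limma adjusted p = 0.000553), with 233, 213 and 198 FPKM with IL-33, against 125, 109 and 124 FPKM with PBS. Atp5e had the highest mean of all 51 members over the 6 libraries, at 797 ± 82.0 FPKM with IL-33 and 489 ± 42.8 FPKM with PBS (SD, n = 3 each; change 0.70 ± 0.10, limma adjusted p = 0.00159). Atp5c1 measured 340.5, 308 and 312 FPKM with IL-33, against 186, 200.3 and 216 FPKM with PBS (change 0.67 ± 0.08, limma adjusted p = 0.000886).

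All 10 genes of the membrane part and the peripheral stalk were higher, with a median of 0.65 and a range from 0.45 for Atp5j to 0.84 for Atp5g3. Atp5f1, Atp5h, Atp5j and Atp5o encode the peripheral stalk that holds the head still, Atp5j2, Atp5k and Atp5l encode small membrane subunits, of which the last 2 help to join ATP synthases into dimers, and Atp5g1, Atp5g2 and Atp5g3 encode the c subunit of the rotor ring. Atp5j2 had the smallest adjusted p of the group (limma, 0.000403), with 263, 281 and 244 FPKM in IL-33 libraries, against 144, 155 and 152.5 FPKM in PBS libraries. Atp5l, the most abundant, measured 736, 680.4 and 621 FPKM with IL-33, against 412, 424 and 476 FPKM with PBS (change 0.63 ± 0.09, limma adjusted p = 0.00162). The groups did not overlap for either gene. With quantile normalization Atp5b, Atp5f1, Atp5h, Atp5j, Atp5k and Atp5l were no longer called, and with equal totals Atp5j was not.

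The 3 c subunit genes rose together. Atp5g2 measured 521, 497 and 457 FPKM with IL-33, against 284, 277.5 and 298 FPKM with PBS (change 0.78 ± 0.07, limma adjusted p = 0.000431). Atp5g3 measured 346.5, 305 and 287.5 FPKM with IL-33, against 164, 167 and 190.5 FPKM with PBS (change 0.84 ± 0.09, limma adjusted p = 0.000748). Atp5g1 was the least abundant, with 110.2, 109 and 93.4 FPKM with IL-33, against 67.9, 65.2 and 62.2 FPKM with PBS (change 0.66 ± 0.08, limma adjusted p = 0.000999). As a share of the summed c subunit FPKM, Atp5g2 took 54.1% ± 0.737 with IL-33 and 54.5% ± 0.512 with PBS, Atp5g3 took 34.4% ± 0.982 with IL-33 and 33.1% ± 1.45 with PBS, and Atp5g1 took 11.4% ± 0.418 with IL-33 and 12.4% ± 0.988 with PBS (SD, n = 3 each). The exact two-sided permutation test gave p = 0.2 for Atp5g1, 0.6 for Atp5g2 and 0.3 for Atp5g3 (adjusted over the 3 tests 0.45, 0.6 and 0.45). With 3 against 3 libraries its smallest possible p is 0.1, so no share could have passed 0.05. The difference in the Atp5g3 share, 1.36 percentage points, ranged from 0.701 to 2.14 when a library was left out.

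**Figure D3:**
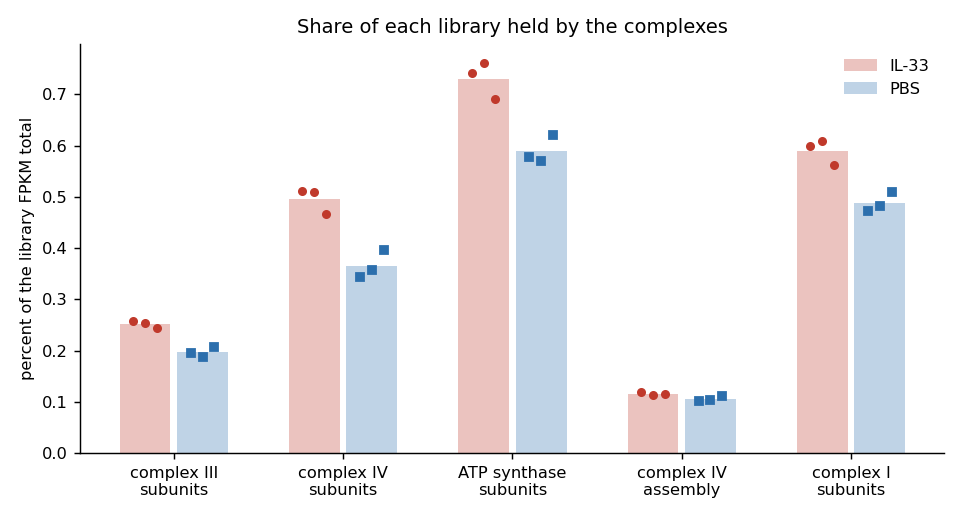
Share of library FPKM totals held by subunits of complex III, complex IV and the ATP synthase, complex IV assembly genes and complex I subunits. The complex I group includes Ndufa4. Bars are group means, points are libraries. The ATP synthase subunits hold 0.690% to 0.760% with IL-33 and 0.570% to 0.621% with PBS. The assembly genes hold 0.114% to 0.120% with IL-33 and 0.102% to 0.112% with PBS. Much of the latter is Cox7a2l, with 591 of 1010 FPKM in IL-33 replicate 1 and 353 of 625.5 FPKM in PBS replicate 1.

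The assembly genes of complex IV did not move as a block. Of 10, Cox14, Cox17, Cox19 and Cox7a2l were higher, Cox18 was lower and 5 did not pass the threshold, with a median change of 0.21. Over all tested genes 28.0% were called higher and 25.5% lower. With equal totals 2 of the 10 were higher and 4 lower, against 11.1% and 50.7% of all tested genes. No test was made of a difference from these shares. Cox17 carries copper towards the catalytic core, Cox19 works with it in the intermembrane space, and Cox14 acts early on the core subunit Cox1. Cox7a2l, which helps to join complexes III and IV into supercomplexes, measured 591, 526 and 565 FPKM in IL-33 libraries, against 353, 372 and 409 FPKM in PBS libraries (change 0.57 ± 0.08, limma adjusted p = 0.0016). Cox14 measured 87.3, 73.3 and 73.9 FPKM with IL-33, against 43.3, 54.2 and 52.9 FPKM with PBS (change 0.63 ± 0.11, limma adjusted p = 0.0031). Cox17 measured 180.1, 151 and 143 FPKM with IL-33, against 112, 111 and 123 FPKM with PBS (change 0.44 ± 0.10, limma adjusted p = 0.00765). The groups were separate for these 3 genes, though Cox17 and Cox19 were not called with equal totals and Cox17 and Cox7a2l were not called with quantile normalization. Cox19 averaged 22.9 ± 3.05 FPKM with IL-33 and 16.7 ± 1.66 FPKM with PBS (SD, n = 3 each) and lost its call without PBS replicate 2 and after the length and GC correction.

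Cox18 was the one member called lower. It inserts a part of the core subunit Cox2 through the inner membrane, and it measured 4.47, 5.24 and 3.99 FPKM in IL-33 libraries, against 6.08, 6.24 and 6.89 FPKM in PBS libraries (change -0.42 ± 0.10, limma adjusted p = 0.0129). Cox10 and Cox15, which make haem A, changed by -0.01 and -0.03, Cox11, which brings copper to Cox1, by -0.03, and Cox20, a chaperone of Cox2, by -0.06. With equal totals Cox10, Cox15 and Cox20 were called lower. Cox16 had a change of 0.47 ± 0.17 and an adjusted p of 0.0508 (limma) with overlapping groups, and it was called without IL-33 replicate 3 and with a filter of 5 FPKM. Exons of Cox16 and Cox17 overlap another annotated gene on the same strand, so their reads may be shared.

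The tissue isoforms were scarce beside the subunits found in most tissues. Cox6b2, best known from testis, measured 25.0, 22.02 and 21.04 FPKM in IL-33 libraries, against 7.52, 7.37 and 4.50 FPKM in PBS libraries. This change of 1.69 ± 0.17 (limma adjusted p = 0.000527) was the largest of any member on this scale. With 0.1 FPKM added in place of 1 it was 1.83, below the 1.98 of Cox4i2. The widely expressed partner Cox6b1, with means of 589 ± 38.0 FPKM with IL-33 and 352 ± 43.8 FPKM with PBS (SD, n = 3 each), was far more abundant than Cox6b2 in both groups. Cox4i2, a form linked to low oxygen in lung, measured 1.71, 1.30 and 1.80 FPKM with IL-33, against 0.263, 0.241 and 0.540 FPKM with PBS (change 0.95 ± 0.14, limma adjusted p = 0.00169). Cox7a1, the form of heart and muscle, measured 4.82, 4.69 and 0.910 FPKM with IL-33, against 0.430, 1.58 and 0.708 FPKM with PBS, and its change of 1.11 ± 0.44 did not pass the threshold (limma adjusted p = 0.0674). Without IL-33 replicate 3, which overlapped the PBS range, it was 1.64 (limma adjusted p = 0.00409). Without IL-33 replicate 1 it was 0.84 and without IL-33 replicate 2 it was 0.85 (limma adjusted p = 0.201 and 0.182), and with the replicate number as a block its adjusted p was 0.0389 (limma). At levels this low the added 1 FPKM understates a change. Cox4i2 and Cox7a1 were tested only because of their levels in IL-33 libraries, so no p-value given for them is independent support for a rise.

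Atp5s and Atp5sl, whose products are not counted among the core subunits of the ATP synthase, had changes of -0.33 ± 0.14 and -0.24 ± 0.10, which did not pass the threshold (limma adjusted p = 0.083 and 0.0712). With equal totals both were called lower at -0.57, and after the length and GC correction at -0.50 for Atp5s and -0.35 for Atp5sl (limma adjusted p = 0.0198 and 0.025). Atp5sl was also called lower with quantile normalization and without PBS replicate 3 (limma adjusted p = 0.046 and 0.0469).

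**Figure D4:**
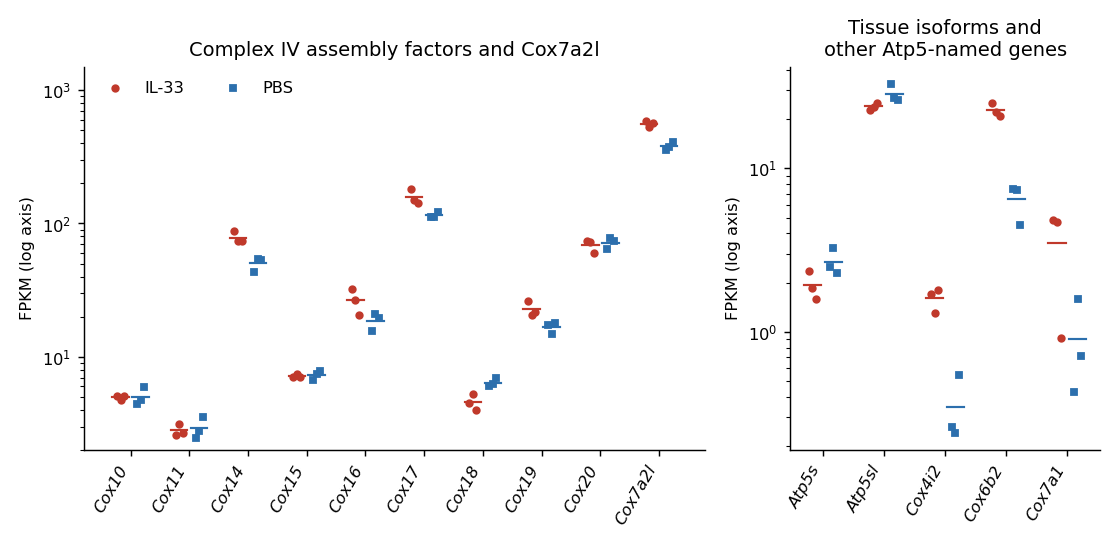
FPKM per library on a log axis for the complex IV assembly genes with Cox7a2l (left) and for the tissue isoforms and other Atp5-named genes above 0 (right); IL-33 is red, PBS blue, lines are group means. Cox6b2 lies at 21.04 to 25.0 FPKM with IL-33 and 4.50 to 7.52 FPKM with PBS, while Cox10, Cox11 and Cox15 overlap between groups.

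In FPKM as deposited, the libraries ranked alike across the 33 subunits. IL-33 replicate 1 was the highest of its group for 29 of 33 and IL-33 replicate 3 the lowest for 31. PBS replicate 3 was the highest of its group for 27 and PBS replicate 1 the lowest for 24. This order depends on library scaling. As a summed share of the FPKM total, IL-33 replicate 2 was highest (1.53%, replicate 1 1.51%) and PBS replicate 2 lowest (1.11%, replicate 1 1.12%). IL-33 replicate 3 (1.40%) and PBS replicate 3 (1.23%) kept their places. All 33 remained called when any single library was left out.

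Most of these genes have short transcripts, and change moved with transcript length in the whole table. Tested genes of up to 1000 bases had a median change of 0.23 with 44.7% called higher, those of 1000 to 2000 bases 0.14, those of 2000 to 4000 bases -0.05 and longer ones -0.30. Of the 33 subunits, 26 fall in the shortest class and 5 in the next. A length here is the median over a gene's annotated protein-coding transcripts, short models included. It can understate the main transcript, as may be so for Uqcrc1, at 533 bases. The class counts and the correction below rest on these lengths. After a correction for length and GC content, which left 26.4% of all genes called higher and 21.6% lower, all 33 remained called higher, with a median of 0.51 and a range from 0.22 for Atp5j to 0.73 for Cox8a. Across the 33 subunits, which share the 6 libraries, change correlated with GC content at a Pearson r of 0.52 as deposited and 0.20 after the correction, and with transcript length at -0.25 as deposited and 0.27 after it.

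**Figure D5:**
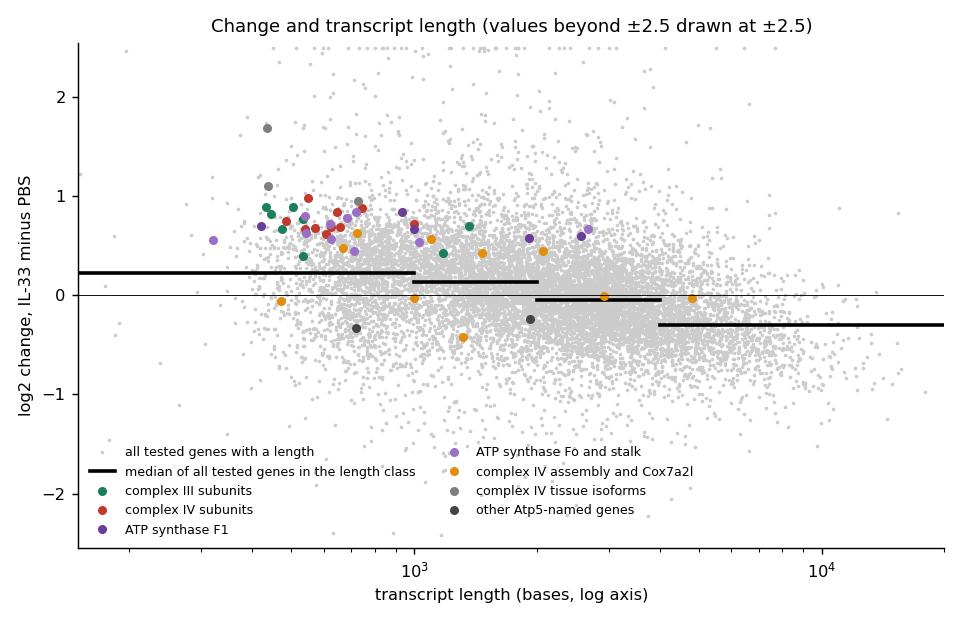
Log2 change (IL-33 minus PBS) against transcript length in bases on a log axis; grey points are all tested genes, coloured points the members by role, and black bars the median of all genes in each length class. The class medians run from 0.23 for the shortest to -0.30 for the longest transcripts, and the 33 subunits lie above the median of their class.

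Genes of the same complexes with other symbols were also counted. Their counts, and those in the paragraphs on similar groups below, stand beside these shares of all tested genes. As deposited 28.0% were called higher and 25.5% lower, with equal totals 11.1% and 50.7%, and with quantile normalization 22.1% and 25.0%. Of 6 tested complex III genes, 4 were higher and Ttc19 lower, with a median of 0.48; with equal totals 2 were higher and 2 lower. Cyc1, the cytochrome c1 protein of the complex, averaged 77.1 ± 9.34 FPKM with IL-33 and 52.6 ± 4.32 FPKM with PBS (SD, n = 3 each), and the assembly factors Uqcc2, Uqcc3 and Bcs1l were the other 3. Cyc1 and Bcs1l were not called with equal totals. Of 20 further complex IV genes 13 were higher and none lower as deposited (median 0.41), while equal totals gave 4 higher and 3 lower (median 0.08) and quantile normalization 9 higher and none lower. Higd2a, which acts in supercomplex assembly, averaged 216 ± 19.3 FPKM with IL-33 and 109 ± 6.21 FPKM with PBS (SD, n = 3 each), a change of 0.98. Surf1, an assembly factor known from Leigh syndrome in humans, changed by 0.60, Coa4 by 0.85 and Smim20 by 0.67.

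Of 7 further ATP synthase genes 4 were higher and none lower as deposited (median 0.56), 3 were higher and 2 lower with equal totals, and 2 were higher with quantile normalization. Atpif1, the inhibitor that stops the enzyme from running backwards, averaged 93.6 ± 1.74 FPKM with IL-33 and 50.8 ± 5.54 FPKM with PBS (SD, n = 3 each), a change of 0.87. Usmg5 and 2010107E04Rik, listed by RefSeq as ATP synthase subunits Atp5md and Atp5mpl, changed by 0.65 and 0.69 and lost their calls with quantile normalization (0.19 and 0.24, limma adjusted p = 0.075 and 0.0695). The fourth, 1110001J03Rik, listed as Fmc1, changed by 0.56 and lost its call with equal totals and after the length and GC correction. Complex II, which feeds electrons from succinate, had 6 of 8 genes higher and none lower as deposited (median 0.37), and 3 higher with equal totals (median 0.05). Its subunits Sdhb, Sdhc and Sdhd changed by 0.58, 0.71 and 0.88. Sdha changed by 0.33 as deposited and by -0.01 with equal totals.

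As deposited, complex I subunits were higher for 34 of 36 tested with none lower (median 0.59). Cytosolic ribosomal protein genes were higher for 74 of 84 with none lower (median 0.50). The complex I group was taken by symbol and includes Ndufa4, which is also among the further complex IV genes above. With equal totals 22 complex I subunits were higher and 1 lower (median 0.25), and 49 ribosomal protein genes rose and 1 fell (median 0.16). Under quantile normalization 26 complex I subunits were higher and none lower (median 0.31), and 12 ribosomal protein genes were higher and 1 lower (median 0.05). No test was made of the difference between these groups and the members. Regulators of respiratory genes were mixed. Of 16 tested, Myc and the coactivator Ppargc1b were higher and Gabpb1, Gabpb2, Polrmt, Hcfc1 and Sp1 lower, with a median of -0.15. Sp1 averaged 13.2 ± 1.05 FPKM with IL-33 and 21.4 ± 1.64 FPKM with PBS (SD, n = 3 each), and Myc 46.2 ± 2.43 FPKM with IL-33 and 32.0 ± 5.54 FPKM with PBS (SD, n = 3 each). With equal totals none of the regulators was called higher and 11 were called lower. Among factors whose motifs were searched, Nrf1, Gabpa, Yy1 and Esrra changed by -0.22, -0.21, -0.09 and 0.16 as deposited, none of them called. With equal totals Nrf1, Gabpa and Yy1 were called lower. After the length and GC correction Nrf1 was called lower at -0.34 and Yy1 higher at 0.23. Whether these factors acted on the members was not tested. Of 12 dividing cell genes, 6 were higher and none lower as deposited, and 2 were higher and 1 lower with equal totals. Over all tested genes 28.0% were higher and 25.5% lower as deposited, and 11.1% and 50.7% with equal totals.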

How the data were processed

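The authors deposited 1 table per library with an FPKM value for each gene symbol. Per the submitters' processing notes, Cuffnorm 2.2.1, TopHat2 2.0.13, SAMtools 0.1.19, Bowtie2 2.2.3 and build mm10 were used; annotation, between-library scaling and strand setting were not given in the sources used here. No counts are given, so absolute depth is unknown, and an exact 0 may be a failed estimate, since 51 features listed at 0 in a library reached at least 100 FPKM elsewhere.

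The 11518 genes that reached 1 FPKM in 3 or more libraries were tested on log2(FPKM + 1), which understates changes of low genes, with limma 3.58.1 in R 4.3.3 (variance trend, no block, two-sided, Benjamini-Hochberg over all tested genes, threshold 0.05). The script was tested on simulated data in which most genes were unchanged, so that test does not bear on the scaling between these libraries. Lengths and GC content came from GENCODE M21 (GRCm38) for 11445 tested genes and entered a smooth correction (mgcv 1.9.3). Each was the median over a gene's protein-coding transcripts, or over all its transcripts where it had none. Members and lists were chosen with earlier results of these data known. The genes named with values were, per role, up to 4 with the smallest adjusted p and the most abundant. Any called against its role and the paralogue sets were named too. Uqcrb, Uqcrc2, Cox16, Cox19, Ttc19, Ndufa4 and some regulators were named after their values were seen. Exons of 3 members overlap another gene on the same strand and those of 11 on the opposite strand, and 7 annotated pseudogenes carry a member's name, so such values are uncertain as to the gene. Python 3.11.15, pandas 2.3.3, scipy 1.17.1 and matplotlib 3.10.9 made the tables and figures.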

Additional observations from a re-analysis of the deposited data

How the results depend on the processing

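The number of all tested genes called was 6169 as deposited, 7120 with equal FPKM totals (1280 higher, 5840 lower) and 5422 with quantile normalization (2545 higher, 2877 lower), so the balance of directions turned. It was 4480 with the replicate block and the length and GC correction, and 4836 to 5876 with a library left out. The median change of all tested members was 0.67 as deposited, 0.33 with equal totals, 0.30 with quantile normalization and 0.48 after length and GC correction. For complex III it was 0.40, 0.43 and 0.52 under those 3 settings, for complex IV 0.33, 0.32 and 0.46, and for the ATP synthase 0.29, 0.20 and 0.49. Sdha turned to -0.01 with equal totals. The cause of these shifts was not tested.

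The labels do not state that a replicate number marks a shared animal, day or batch, so the numbers were not treated as pairs. Deviations from the group mean correlated at 0.075, -0.054 and 0.089 for same-numbered replicates, and at -0.113 to 0.0556 for the others. Deviations from a mean of 3 libraries are tied to each other, so these values cannot settle whether libraries were paired. With the replicate block 41 members were called (40 higher, 1 lower), and 5258 of all genes. With the replicate block and the length and GC correction the medians were 0.48 over all members, 0.52 for complex III, 0.46 for complex IV and 0.49 for the ATP synthase, and Atp5j lost its call.

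Leaving out each library in turn gave 39 to 42 members called and medians of 0.61 to 0.72. A pseudocount of 0.1, no filter, a filter of 5 FPKM and a fit without variance trend changed no call of a tested member except Cox16, which was called with the filter of 5 FPKM.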
